A study of Mus musculus with 6 samples.

Results

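Fast excitatory transmission in the cortex runs on glutamate that neurons must make, load into vesicles and recover. The 5 genes described here encode neuronal transporters on that route, and they were matched by symbol among the 56923 genes counted in each library. *Slc17a7*, *Slc17a6* and *Slc17a8* encode the vesicular glutamate transporters VGLUT1, VGLUT2 and VGLUT3. *Slc1a1* encodes the neuronal glutamate carrier EAAT3 (also called EAAC1), and *Slc38a1* encodes the glutamine transporter SNAT1. All 5 were found and all 5 passed the filter on low counts.

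RNA from the prefrontal cortex, dissected by cutting the front of the brain, was sequenced from 3 samples labelled *Pla2g4e* KO (KO) and 3 labelled wild type (WT). *Pla2g4e* belongs to the cytosolic phospholipases A2, enzymes that act on membrane lipids when calcium is present. The KO mice carry the constitutive tm2a allele in the strain C57BL/6N-A tm1Brd, a LacZ gene trap predicted to give a null through altered splicing in every cell. The labels give no age, sex or litter, and do not say that each sample is a separate animal, so p-values measure the spread between these samples, which may be technical in part.

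Vesicular glutamate transporters use the electrochemical gradient built by the vesicular proton pump to concentrate glutamate inside synaptic vesicles. In the forebrain VGLUT1 is the main form of cortical and hippocampal excitatory neurons, VGLUT2 is typical of thalamic and other subcortical neurons, and VGLUT3 is found in small populations of cholinergic, serotonergic and GABAergic neurons. Much released glutamate is taken up by astrocytes, turned into glutamine and passed back to neurons, where SNAT1 is among the transporters that admit it. EAAT3 takes up glutamate and cysteine into neurons directly.

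The promoters of the vesicular transporters and of *Slc1a1* are shown as the sequence context of genes that differed widely in RNA level. Each sequence is the 250 bases before an annotated start in RefSeq on GRCm38.p6, written 5′ to 3′ on the strand of the gene, with GC boxes (GGGCGG on either strand) in capitals. The table used held such a window for 4 of the 5 genes, which leaves out *Slc38a1*. The windows lie at chr7:45163671-45163920 (plus strand) for *Slc17a7*, chr7:51621580-51621829 (plus strand) for *Slc17a6*, chr10:89621250-89621499 (minus strand) for *Slc17a8* and chr19:28834885-28835134 (plus strand) for *Slc1a1*.
Slc17a7: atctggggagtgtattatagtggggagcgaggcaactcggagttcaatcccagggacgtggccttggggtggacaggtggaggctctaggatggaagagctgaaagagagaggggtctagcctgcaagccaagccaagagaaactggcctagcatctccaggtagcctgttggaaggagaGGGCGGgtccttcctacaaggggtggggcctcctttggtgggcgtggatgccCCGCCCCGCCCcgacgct
Slc17a6: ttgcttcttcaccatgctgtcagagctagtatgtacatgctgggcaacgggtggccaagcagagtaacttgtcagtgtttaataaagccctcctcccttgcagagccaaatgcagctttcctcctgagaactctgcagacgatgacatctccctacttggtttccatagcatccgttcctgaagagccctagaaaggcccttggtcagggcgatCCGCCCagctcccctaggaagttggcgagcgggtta
Slc17a8: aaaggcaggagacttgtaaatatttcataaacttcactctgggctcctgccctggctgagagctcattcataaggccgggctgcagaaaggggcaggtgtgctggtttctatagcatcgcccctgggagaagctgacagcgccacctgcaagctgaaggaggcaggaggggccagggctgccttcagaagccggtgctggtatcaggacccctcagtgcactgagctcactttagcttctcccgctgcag
Slc1a1: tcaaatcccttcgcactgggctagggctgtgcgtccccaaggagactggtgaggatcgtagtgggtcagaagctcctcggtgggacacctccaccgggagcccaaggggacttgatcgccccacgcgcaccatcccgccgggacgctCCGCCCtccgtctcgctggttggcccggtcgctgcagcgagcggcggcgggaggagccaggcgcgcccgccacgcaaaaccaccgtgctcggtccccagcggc

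The *Slc17a7* window held 3 GC boxes, whose first letters lie 70, 18 and 13 bases before the start, and the last 2 of them share 1 base. The *Slc17a6* window held 1 GC box at 36 bases and the *Slc1a1* window held 1 at 103 bases, whereas the *Slc17a8* window held none. GGGCGG was present on either strand in 32.7% of all 32851 windows of this length. The letters CCAAT, present in 33.8% of windows, and TATAAA, present in 12.4%, were searched on both strands and were not in any of the 4. The *Slc1a1* window was the richest of the 4 in GC, at 70.4% with 27 CG pairs. The other 3 had 61.2% and 9 for *Slc17a7*, 53.2% and 7 for *Slc17a6*, and 57.2% and 5 for *Slc17a8*, beside medians of 52.4% and 6 over all windows. RefSeq lists a second start for *Slc17a6* and for *Slc17a8*, and those windows held none of the 3 motifs. These matches describe letters only.

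Library totals ranged from 11792463 to 14594230 fragments (read pairs). The RNA of *Pla2g4e* itself was at 5.95, 8.12 and 7.97 CPM (counts as a share of the library total, per 1e6, after TMM scaling) in KO replicates 1 to 3, and at 7.84, 11.3 and 13.2 CPM in the libraries labelled WT replicates 1 to 3. The log2 fold change was -0.55 (SE 0.21, limma-voom, unadjusted p = 0.0205, adjusted p = 0.635). The library labelled WT replicate 1 lay just under KO replicates 2 and 3, so this gene does not separate the labelled groups, and counts over all exons do not measure the predicted null. *Xist* had 20521 fragments in KO replicate 1, 12365 in the library labelled WT replicate 1 and 3 or fewer in each of the other 4. Markers of cortical excitatory neurons were detected in every library, with 4411 to 5196 CPM summed over 8 genes, of which *Camk2a* was the largest term. All 8 had negative log2 fold changes, from -0.42 for *Neurod6* to -8e-04 for *Camk2a*. An unadjusted p under 0.05 was reached by 3 of them, beside 3.44% of all genes in the lower direction. No gene of 19084 tested passed an adjusted p of 0.05 in limma-voom or in the quasi-likelihood test of edgeR, and 1 passed in DESeq2. At an unadjusted p under 0.05 limma-voom gave 1492 genes, edgeR 1507 and DESeq2 902.

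*Slc17a7* was by far the most abundant of the 5, and the vesicular transporters spanned the whole range of levels. To compare genes, levels are given as CPM per kilobase of counted exon. The mean over the 6 libraries was 269.5 for *Slc17a7*, 15.6 for *Slc1a1*, 10.4 for *Slc38a1*, 1.97 for *Slc17a6* and 0.692 for *Slc17a8*. Each gene stood above the next in 6 of 6 libraries, and no neighbouring ranges overlapped. The steps down were 17.3-fold, 1.49-fold, 5.31-fold and 2.84-fold. The narrowest, between *Slc1a1* (14.5 to 16.9) and *Slc38a1* (9.59 to 11.8), depends on counted exon lengths of 8257 and 17236 bases, which sum all annotated exons of a gene. In CPM, without division by length, their order was the reverse, with *Slc38a1* at 165 to 203 and *Slc1a1* at 120 to 139.

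**Figure D1:**
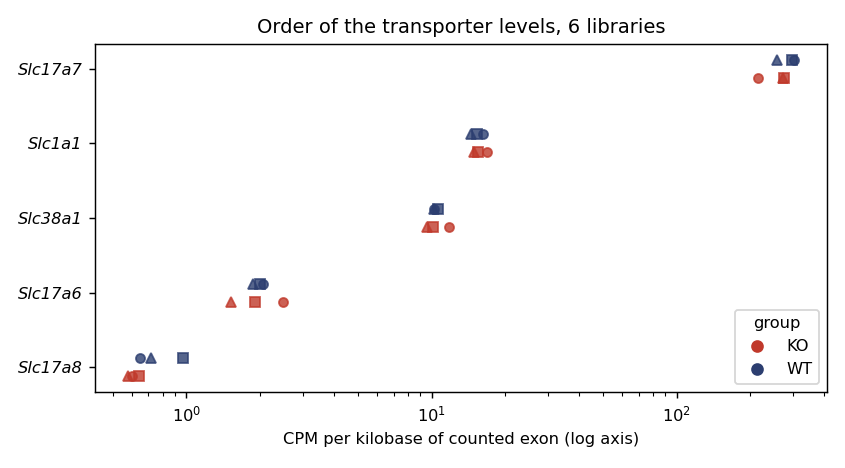
Level of each of the 5 transporter genes in CPM per kilobase of counted exon (log axis), with 1 point per library and KO and WT in separate colours. The 5 genes form separate bands, from a mean of 269.54 for *Slc17a7* down to 0.692 for *Slc17a8*.

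*Slc17a7* therefore made up nearly all of the vesicular glutamate transporter RNA measured per length. Its share of the 3 was 98.6%, 99.1% and 99.2% in KO replicates 1 to 3 and 99.1%, 99.0% and 99.0% in WT replicates 1 to 3. The group means did not separate (exact two-sided permutation test, p = 0.9, where 3 against 3 cannot go below 0.1). *Slc17a6* took 0.557% to 1.13% and *Slc17a8* 0.212% to 0.324% over the 6 libraries. For tissue labelled prefrontal cortex, the leading form was thus the one known as the main cortical form.

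For none of the 5 genes did the difference between KO and WT pass a test against the spread of the libraries. Of the 5, 3 were lower and 2 higher in KO, with adjusted p from 0.648 to 0.986 in limma-voom. An unadjusted p under 0.05 was reached by 0 of the 5, beside 7.82% of all genes tested, and an adjusted p under 0.05 by 0 of 5, beside 0% of all genes. The median log2 fold change of the 5 was -0.015, beside 0.0085 over all genes. The groups did not overlap for 1 of the 5, beside 13% of all genes.

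**Figure D2:**
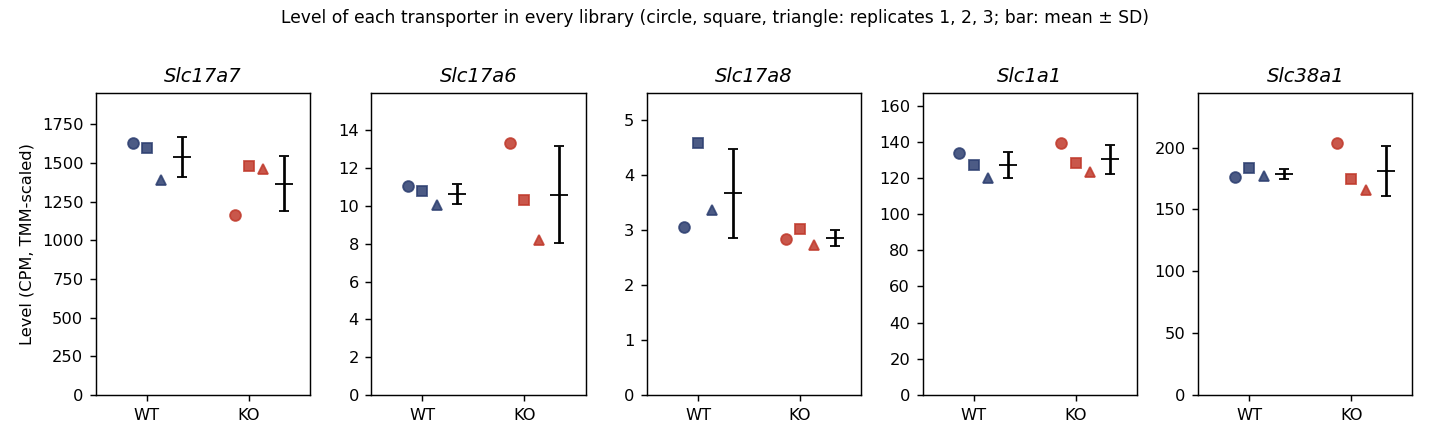
CPM of the 5 transporter genes in each library, in 1 panel per gene with its own axis, with the group mean and SD. KO replicate 1 is the lowest library for *Slc17a7* (1161 CPM) and the highest for *Slc17a6*, *Slc1a1* and *Slc38a1*.

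*Slc17a7*, on chr7:44813373-44825566 (GRCm39, plus strand), encodes the transporter that loads most cortical glutamate vesicles. It was at 1161, 1483 and 1459.9 CPM in KO replicates 1 to 3 and at 1628, 1599.7 and 1389 CPM in WT replicates 1 to 3, from 17177 to 20770 fragments each. KO replicate 1 was the lowest library, and the library labelled WT replicate 3 lay below KO replicates 2 and 3, so the groups overlapped. The means were 1368 ± 179 CPM in KO and 1539 ± 131 CPM in WT (SD, n = 3). The log2 fold change was -0.18 (SE 0.09, 95% interval -0.38 to 0.03), or 0.885-fold (0.769 to 1.02), and did not pass (limma-voom, unadjusted p = 0.0848, adjusted p = 0.648). Single libraries moved this value: it was -0.06 without KO replicate 1 (unadjusted p = 0.423), -0.25 without WT replicate 3 (unadjusted p = 0.0285), -0.24 without KO replicate 2 (unadjusted p = 0.0445) and -0.02 without both libraries with *Xist*. The counting SD of this gene was 0.694% to 0.763% a library, smaller than the spread between libraries.

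*Slc17a6*, on chr7:51271754-51320867 (plus strand), encodes the form typical of subcortical excitatory neurons. Its levels were 13.3, 10.3 and 8.20 CPM in the KO libraries, against 11.05, 10.8 and 10.05 CPM in the WT libraries. The WT libraries lay close together, with KO replicate 2 within their range. KO replicate 1 lay above them, as the highest of the 6, and KO replicate 3 below them, as the lowest. The means were 10.6 ± 2.57 CPM in KO and 10.6 ± 0.524 CPM in WT (SD, n = 3). The log2 fold change was -0.02 (SE 0.17, 95% interval -0.38 to 0.35, limma-voom, unadjusted p = 0.931, adjusted p = 0.986). With 105 to 197 fragments a library, the interval allows 0.767-fold to 1.28-fold. Its sign turned with the setting, from -0.21 without KO replicate 1 to 0.16 without KO replicate 3.

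*Slc17a8*, on chr10:89409882-89457115 (minus strand), encodes the form of scattered modulatory and inhibitory neurons. Its levels were 2.84, 3.02 and 2.73 CPM in the KO libraries, against 3.06, 4.58 and 3.38 CPM in the WT libraries. All 3 KO libraries lay below all 3 WT libraries, as was so, in the lower direction, for 6.29% of genes tested. The nearest pair was KO replicate 2 with the library labelled WT replicate 1. They rested on 36 and 39 fragments, and their 95% counting intervals of 2.11 to 4.17 and 2.17 to 4.18 CPM nearly coincided. The means were 2.86 ± 0.142 CPM in KO and 3.67 ± 0.805 CPM in WT (SD, n = 3). The log2 fold change of -0.33 (SE 0.23, 95% interval -0.83 to 0.16) did not pass (limma-voom, unadjusted p = 0.169, adjusted p = 0.697). It was -0.17 without WT replicate 2, the highest library. Choroid plexus markers (3 genes) summed to 27.7 CPM in that library and to 1.09 to 4.24 CPM in the other 5, but *Ttr* alone made up 26.8 CPM of that sum. *Kcnj13* was at its lowest there (0.737 CPM) and *Folr1* was not at its highest. *Ttr* was lower in KO without overlap (log2 fold change -3.22, limma-voom, unadjusted p = 0.0587). Markers of cholinergic neurons (3 genes) summed to 2.23 to 3.27 CPM in KO and 2.04 to 3.61 CPM in WT. Their part in the level of *Slc17a8* was not tested. The interval allows 0.563-fold to 1.12-fold.

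*Slc1a1*, on chr19:28812449-28891360 (plus strand), encodes the neuronal glutamate and cysteine carrier. KO replicates 1 to 3 had 139, 128 and 124 CPM, and WT replicates 1 to 3 had 134, 127 and 119.9 CPM, from 1527 to 2059 fragments each. The groups interleaved, alternating KO and WT from the highest library to the lowest. The means were 130 ± 7.99 CPM in KO and 127 ± 7.10 CPM in WT (SD, n = 3). The log2 fold change was 0.04 (SE 0.07, 95% interval -0.12 to 0.19, limma-voom, unadjusted p = 0.604, adjusted p = 0.899), which allows 0.922-fold to 1.14-fold. It was -0.01 without KO replicate 1 and -0.0061 without WT replicate 3. *Gm5822* and *4430402I18Rik* overlap this gene on the opposite strand, and the counting used strand.

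*Slc38a1*, on chr15:96469299-96540794 (minus strand), encodes the neuronal glutamine transporter. Its levels were 203, 174 and 165 CPM in the KO libraries, against 176, 183 and 177 CPM in the WT libraries, from 2083 to 3010 fragments each. The 3 WT libraries were within a narrow band, KO replicate 1 lay above it and KO replicates 2 and 3 lay below it. The means were 181 ± 19.9 CPM in KO and 179 ± 3.91 CPM in WT (SD, n = 3). The log2 fold change was 0.01 (SE 0.08, 95% interval -0.16 to 0.18, limma-voom, unadjusted p = 0.857, adjusted p = 0.971), which allows 0.898-fold to 1.14-fold. Without KO replicate 1 it was -0.07, and with library quality weights -0.03.

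**Figure D3:**
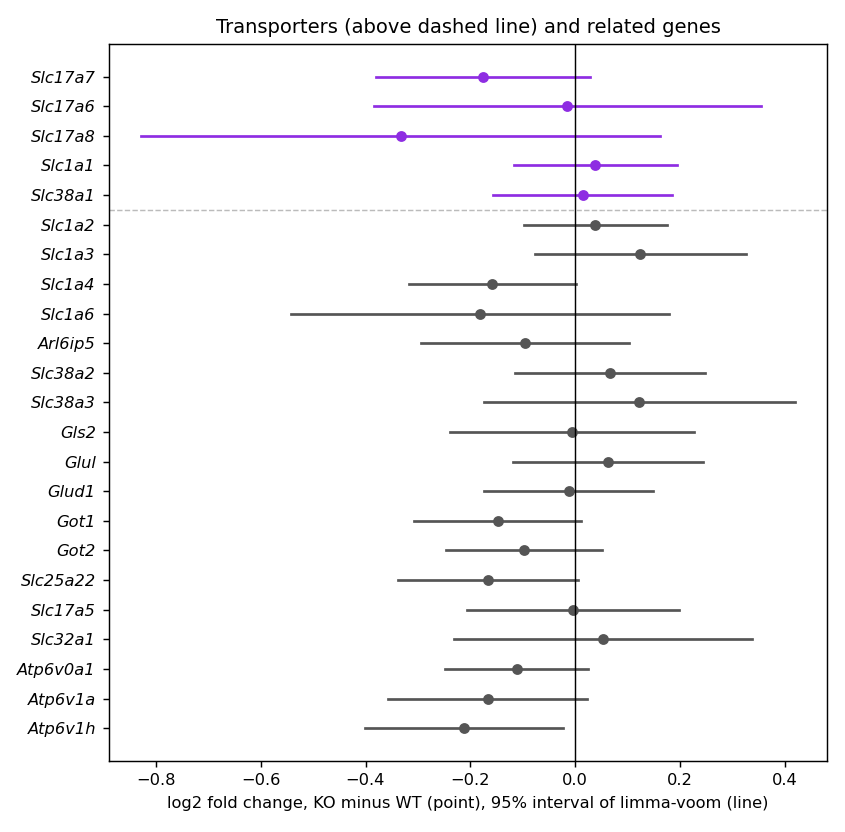
Log2 fold change (KO/WT) of the 5 transporter genes and of related genes, with the 95% interval of the limma-voom fit; 0 marks equal levels. The intervals of all 5 transporters include 0, and the widest of the 5 is that of *Slc17a8* (-0.83 to 0.16).

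KO replicate 1 was the lowest or highest library for 4 of the 5 genes, though its counting interval overlapped those of the libraries labelled WT replicates 1 and 2 and KO replicate 2 for *Slc1a1*, and those of all 3 WT libraries and KO replicate 2 for *Slc17a6*. Averaged over 8 genes, log2 CPM of the cortical excitatory markers was also lowest there, at -0.28 against the mean of the 6 libraries, while the other 5 lay between -0.06 and 0.15. This depends on the measure, as their summed CPM was lowest in KO replicate 2 (4411), next to KO replicate 1 (4425). *Slc17a7* went with the log2 average over the 6 libraries (Pearson r = 0.94, a description over libraries that both share). Markers of olfactory mitral and tufted cells (*Tbx21*, *Eomes*, *Cdhr1*, *Doc2g*) summed to 163 CPM in KO replicate 1 and to 11.4 to 42.3 CPM in the other 5 libraries, with *Eomes* at 0 in WT replicate 2. Markers of GABAergic neurons summed to 1053 CPM in KO replicate 1 and to 551 to 755 CPM elsewhere, with *Gad1* (581 CPM) the largest term. *Gad1*, *Gad2*, *Slc32a1* and *Dlx1* had their highest level of the 6 libraries there, whereas *Lhx6* (13.7 CPM) and *Pvalb* (20.1 CPM) had their lowest. Of the 7 GABAergic markers, 3 were lower and 4 higher in KO, with *Lhx6* and *Pvalb* lower and *Dlx1* higher at an unadjusted p under 0.05, beside 3.44% and 4.38% of all genes. Striatal markers summed to 350 to 460 CPM in KO, to 262 and 268 CPM in WT replicates 1 and 2 and to 435 CPM in WT replicate 3, and 10 of 10 were higher in KO, 1 of them with an unadjusted p under 0.05, beside 4.38% of all genes. Thalamic markers summed to 22.6 to 25.1 CPM in KO and 19.8 to 22.3 CPM in WT, with 3 of 4 tested higher in KO and 2 of these at an unadjusted p under 0.05, beside the same 4.38%. Astrocyte and oligodendrocyte markers were each higher in KO for 6 of 6 genes, microglial markers lower for 3 of 5 and endothelial markers lower for 3 of 3, and none of these had an unadjusted p under 0.05. Oligodendrocyte markers summed to 2803 CPM in WT replicate 3 and to 1694 and 1869 CPM in WT replicates 1 and 2. WT replicate 3 was closer in its counts to KO replicate 2 (chi-square per degree of freedom 2.95) than any libraries of 1 group were to each other (3.82 or more). It is also the WT library that lay among or next to the KO libraries for *Slc17a7* and for the proton pump genes described further on. The part of these cells in the levels of the 5 genes was not tested. In bulk tissue, fewer cells of a type and less RNA per cell cannot be told apart.

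**Figure D4:**
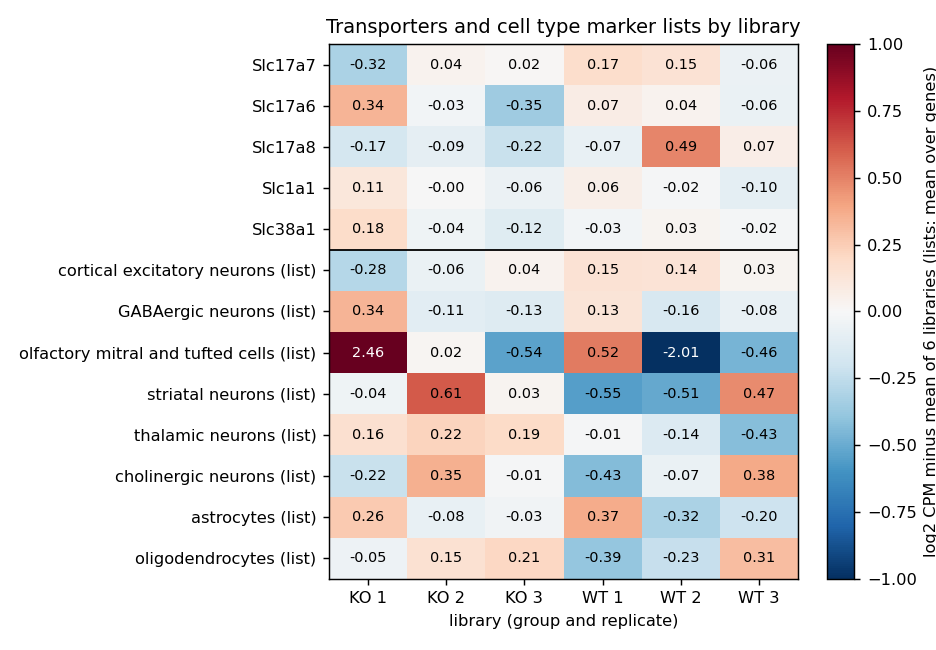
Heat map of log2 CPM minus the mean of the 6 libraries for each of the 5 transporter genes and, averaged over genes, for marker lists, with libraries in columns and the colour capped at 1 in either direction. In KO replicate 1 the olfactory list is high (2.46), and *Slc17a7* (-0.32) and the cortical excitatory list (-0.28) are at their lowest.

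Ratios within a library, which need no scaling between libraries, set KO replicate 1 apart in some cases and not in others. *Slc17a7* over *Slc17a6* per length was 87.3, 144 and 178 in KO replicates 1 to 3 and 147.5, 148 and 138 in WT replicates 1 to 3 (exact two-sided permutation test, p = 0.8). Likewise per length, *Slc17a7* over *Slc32a1*, the vesicular transporter for GABA and glycine, was 7.80 in KO replicate 1 and 12.6 to 15.2 in the other 5 libraries (exact p = 0.8). *Slc17a7* over *Slc1a1* took values of 12.8, 17.7 and 18.1 in KO, against 18.6, 19.3 and 17.7 in WT (exact p = 0.2). KO replicate 1 gave the lowest value of each of these 3. It did not stand apart in *Slc17a7* over *Slc17a8*, at 358 beside 305.5 to 466 in WT, or in *Slc38a1* over *Slc1a1*, at 0.700 beside 0.629 to 0.708 in WT. None of these 5 ratios separated the groups. CPM of *Slc17a7* over the summed CPM of the cortical excitatory markers was 0.262, 0.336 and 0.281 in KO, against 0.360, 0.321 and 0.285 in WT. KO replicate 1 was again the lowest, and the groups overlapped (exact two-sided permutation test, p = 0.4).

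Across the 6 libraries, *Slc17a6* went with *Slc38a1* (Pearson r = 0.93) and with *Slc1a1* (r = 0.79), and *Slc17a7* ran against *Slc38a1* (r = -0.67). These are descriptions over 6 points that share libraries, and KO replicate 1 is an extreme of each of these 4 genes. The genes most like each of the 5 in log2 CPM, of 15253 candidates, were *Jakmip1*, *Frrs1l* and *Cadm4* for *Slc17a7* (r from 0.994 to 0.999). They were *Aifm2*, *Shisa9* and *Cthrc1* for *Slc17a6*, and *4932441J04Rik*, *Acbd6* and *Cfap36* for *Slc17a8*. For *Slc1a1* they were *Serf2*, *Pctp* and *Mlph*, and for *Slc38a1* they were *Ano4*, *Zfp189* and *St6galnac2*. Candidates with r over 0.95 numbered 116 for *Slc17a7*, 14 for *Slc17a6*, 30 for *Slc17a8*, 21 for *Slc1a1* and 11 for *Slc38a1*.

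The other carriers of the SLC1 family and system xc- showed no shared direction, with 2 of 6 tested lower in KO, 4 higher and a median log2 fold change of 0.05. That median was -0.06 without WT replicate 2, where 4 were lower and 2 higher, and 0.11 without WT replicate 3. *Slc1a2* and *Slc1a3*, the main astrocyte glutamate carriers, had log2 fold changes of 0.04 (unadjusted p = 0.554) and 0.12 (unadjusted p = 0.204). *Slc1a6*, a carrier best known from Purkinje cells, had -0.18 (unadjusted p = 0.293), and *Slc1a4*, a neutral amino acid carrier, had -0.16 (unadjusted p = 0.0508). The groups did not overlap for *Slc1a4*, beside 6.29% of all genes in the lower direction. *Slc1a5*, a glutamine carrier of low level here, was the 1 gene of the 6 with an unadjusted p under 0.05 (0.97, SE 0.40, limma-voom unadjusted p = 0.0331, adjusted p = 0.635), beside 4.38% of all genes in the higher direction. Its levels were 5.81, 2.60 and 2.19 CPM in the KO libraries, against 1.25, 1.64 and 2.28 CPM in the WT libraries, so the groups overlapped and KO replicate 1 was the highest. Without KO replicate 1, WT replicate 1 or WT replicate 2 in turn, no gene of this list had an unadjusted p under 0.05. With library quality weights 0 were higher and 1 lower at that level, beside 3.44% of all genes lower. There was also 1 lower gene with edgeR (beside 3.31%), the scaling of DESeq2 (beside 3.76%) and the edgeR expression filter (beside 3.95%). The same was so with the *Xist* covariate (beside 4.61%) and without WT replicate 3 (beside 6.4%). *Arl6ip5*, whose product binds EAAT3, had -0.10 (unadjusted p = 0.312). *Slc1a7* was too low to test.

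The SLC38 family, which moves glutamine and other neutral amino acids, had 3 of 9 genes lower and 6 higher. The groups did not overlap for 1 of them, *Slc38a5*, lower in KO (log2 fold change -0.48, unadjusted p = 0.0841), beside 6.29% of all genes in the lower direction. None of the 9 had an unadjusted p under 0.05. Without WT replicate 1, 1 was higher at that level, in a fit where 1019 of all genes reached it in either direction. *Slc38a2*, which like *Slc38a1* serves uptake, had a log2 fold change of 0.07 (unadjusted p = 0.443), and *Slc38a3*, an astrocyte glutamine exporter, had 0.12 (unadjusted p = 0.386). Enzymes and mitochondrial carriers of glutamate synthesis had 8 of 13 genes lower and 5 higher, a median of -0.01 and none with an unadjusted p under 0.05. The groups did not overlap for 1 of the 13, higher in KO, beside 13% of all genes in either direction. The counts of lower and higher genes moved with the setting, to 5 lower and 8 higher with library totals alone or without both libraries with *Xist*. At an unadjusted p under 0.05, 3 were lower without WT replicate 3, beside 6.4% of all genes in the lower direction. Without KO replicate 2, 2 were lower (beside 3.14%) and 1 higher, and with the *Xist* covariate 2 lower (beside 4.61%) and 1 higher. With the filter of at least 1 fragment 2 were lower (beside 3.12%), and with the replicate block 1 was lower (beside 3.62%) and 1 higher. These shares are for the lower direction only. *Gls2*, which releases glutamate from glutamine, had -0.01 (unadjusted p = 0.960). *Glul*, the glutamine synthetase of astrocytes, had 0.06 (unadjusted p = 0.469), and *Glud1*, glutamate dehydrogenase, had -0.01 (unadjusted p = 0.867). The aspartate aminotransferases *Got1* and *Got2* had -0.15 (unadjusted p = 0.0656) and -0.10 (unadjusted p = 0.178), and the mitochondrial glutamate carrier *Slc25a22* had -0.17 (unadjusted p = 0.0560).

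Other vesicular transporters held no gene with an unadjusted p under 0.05. Without KO replicate 3, 1 was higher at that level, in a fit where 1527 of all genes reached it in either direction. The median log2 fold change of the 3 tested was 0.05, with -0.14 without KO replicate 1 and 0.18 without KO replicate 3. *Slc32a1* had a log2 fold change of 0.05 (unadjusted p = 0.690), and *Slc18a3*, the acetylcholine transporter, had -0.46 (SE 0.55, unadjusted p = 0.420) at a mean of 0.308 CPM in KO and 0.423 CPM in WT. Of the other SLC17 genes, the lysosomal sialic acid transporter *Slc17a5* had -0.0043 (unadjusted p = 0.964) and the vesicular nucleotide transporter *Slc17a9* had 0.39 (SE 0.51, unadjusted p = 0.461). *Slc17a1*, *Slc17a2*, *Slc17a3*, *Slc17a4* and *Slc18a1* were too low to test.

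The genes listed for the proton pump had values in 1 direction, without a gene that passed the adjusted threshold. RNA from bulk tissue does not show which cells or membranes these subunits serve. All 17 genes of the list, 16 pump subunits or accessory subunits and the chloride transporter *Clcn3*, had negative log2 fold changes, from -0.28 to -0.02, with a median of -0.17. None passed the adjusted threshold (limma-voom, lowest adjusted p = 0.635), and 10 of the 17 had an unadjusted p under 0.05, beside 3.44% of all genes in the lower direction. *Atp6v1g2*, a subunit typical of neurons, had levels of 439, 453 and 471 CPM in the KO libraries, against 593, 580 and 487 CPM in the WT libraries. The groups did not overlap, and the library labelled WT replicate 3 was the nearest to KO. Its log2 fold change was -0.28 (SE 0.08, unadjusted p = 0.00338, adjusted p = 0.635). *Atp6v1d* had -0.20 (unadjusted p = 0.00977), *Atp6v1b2* -0.25 (unadjusted p = 0.0140), *Atp6v1h* -0.21 (unadjusted p = 0.0313), *Atp6v1a* -0.17 (unadjusted p = 0.0802) and *Atp6v0a1* -0.11 (unadjusted p = 0.0985). The groups did not overlap for 4 of the 17 (*Atp6v1g2*, *Atp6v1d*, *Atp6v0e2* and *Atp6ap1*), beside 6.29% of all genes.

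**Figure D5:**
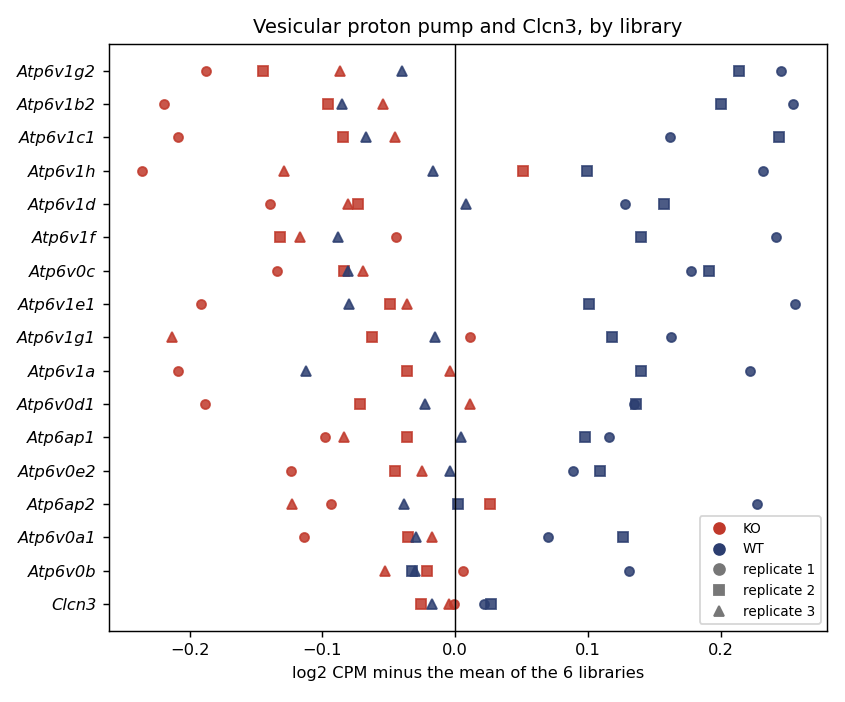
Log2 deviation from the mean of the 6 libraries for each of the 17 genes of the proton pump list, with 1 point per library and KO and WT in separate colours. The libraries labelled WT replicates 1 and 2 lie above every KO library for 15 of the 17 genes, and WT replicate 3 lies at or below the highest KO library for 13.

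The summed level of the pump list was 3913, 4161 and 4185 CPM in the KO libraries, against 4887, 4768 and 4197 CPM in the WT libraries. The groups did not overlap, but WT replicate 3 was next to KO replicate 3. The number of its genes with an unadjusted p under 0.05 followed single libraries. It was 5 without KO replicate 1, 6 without KO replicate 2, 5 without KO replicate 3, 2 without WT replicate 1, 2 without WT replicate 2 and 14 without WT replicate 3. The share of all genes called lower in these fits was 1.7%, 3.14%, 3.15%, 2.32%, 1.84% and 6.4% in the same order. The number of pump genes was 5 with library totals in place of TMM scaling, where 2.19% of all genes were called lower. In that fit and in the fit without WT replicate 1, 16 of 17 had negative values. The number was 1 without both libraries with *Xist*, where 1.41% of all genes were called lower. There all 17 had negative values and the median was -0.09. Markers of cortical excitatory neurons also had negative values (8 of 8, median -0.21), though that of *Camk2a* was only -8e-04. Their summed level overlapped between the groups, at 4411 to 5196 CPM in KO and 4521.5 to 4976 CPM in WT. Their part in the pump values was not tested.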

How the data were processed

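Polyadenylated RNA from 3 KO and 3 WT samples was made into stranded libraries. The deposited values are raw counts of fragments per gene, which the authors made with STAR 2.7.9a and, per the file headers, featureCounts 1.6.0 (paired-end, reverse-stranded, exons of GENCODE M31 on GRCm39). The methods name an earlier assembly, so gene coordinates are those of the files and promoter coordinates those of GRCm38.p6, and the builds were not mixed. The counts were not normalized before deposition, and the labels do not say whether a sample pools several animals.

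Symbols were matched by gene identifier to a GENCODE annotation of GRCm38 (52073 of 56923 genes). Of 29943 genes with a fragment, 19084 had at least 6 in at least 1 library and were tested. KO was compared with WT by limma-voom (limma 3.58.1, edgeR 4.0.16 for TMM scaling, R 4.3.3) after the study's methods, without covariates, two-sided, and p-values were adjusted by Benjamini-Hochberg over the whole table (threshold 0.05). TMM is the trimmed mean of M-values; CPM values are TMM-scaled, and CPM per kilobase divides them by the exon length column of the files. Unadjusted p-values in the text are from this fit. Ratios within a library were compared by exact permutation. Counting intervals are exact Poisson at 95% and cover counting error only, as fragments carry no molecular identifiers. Likeness is the Pearson correlation of log2 CPM (prior count 2) among genes with a mean of at least 1 CPM.

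The 5 genes, the lists and the tests were chosen with earlier results of these data known. The 5 and *Pla2g4e* were always named, with a set of core genes of each list and at most 3 further genes of lowest p where under 0.05. *Slc38a5*, *Atp6v0e2*, *Atp6ap1*, *Ttr*, the marker genes and the genes too low to test were named after their values were seen. Tried as alternatives were DESeq2 1.42.0, the edgeR quasi-likelihood test, other scalings and filters, sample weights, a replicate block, a covariate for *Xist* and leaving out each library. No pair of libraries agreed within sampling noise. 1 gene of the synthesis list is not reported here by name. The scripts were tested on simulated data.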

Additional observations from a re-analysis of the deposited data

How the results depend on the processing

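*Slc17a7* and *Slc17a8* were lower in KO under all 16 alternatives, and none of the 5 transporters reached an adjusted p of 0.05 under any of them (lowest 0.377). *Slc17a7* had an unadjusted p under 0.05 in 3 of the 16, with the filter of at least 1 fragment (limma-voom, unadjusted p = 0.0240), without KO replicate 2 and without WT replicate 3. *Slc17a6* was at 0.002 with edgeR and 0.0085 with library totals alone, and between -0.21 and 0.16 when single libraries were left out. *Slc38a1* was at -0.027 with quality weights and between -0.074 and 0.077 when single libraries were left out, and *Slc1a1* between -0.011 and 0.077. Genes passing the adjusted threshold numbered 1 with DESeq2, 24 with the *Xist* covariate and 0 to 1 when single libraries were left out. Genes at an unadjusted p under 0.05 numbered 902 with DESeq2 and 782 to 2239 when single libraries were left out. The median of the synthesis list ranged from -0.060 to 0.0044 when single libraries were left out. Leaving out both libraries with *Xist*, an alternative chosen after seeing the data, gave 3 adjusted and 696 unadjusted calls, -0.086 for *Slc38a1*, -0.088 for the median of the pump list and 0.053 for *Arl6ip5*. The causes were not tested.

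The replicate numbers are not shown to pair the samples, as deviations of same-numbered libraries correlated at 0.267, 0.059 and -0.02. With the replicate number as a block, 1693 genes had an unadjusted p under 0.05 and 0 were called after adjustment, and no call on the 5 transporters changed. Depth limits *Slc17a8* most, with 35 to 56 fragments a library and a counting SD of 13.4% to 16.9%.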
